A study of Mus musculus with 15 samples.

Results

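Long noncoding RNA (lncRNA) genes whose promoters carried H3K4me3, with no protein-coding start nearby, were followed in brown adipocytes (mBA cells) across 3 conditions. A peak was kept when it overlapped the 2000 bp on either side of a lncRNA transcript start and no such window of a protein-coding gene, on chromosomes 1 to 19 of GRCm39. Of all peaks, 451 of 11988 in WT met this rule (3.76%, 95% Wilson interval 3.44 to 4.12%), 667 of 13668 in WT + 2HG (4.88%, 4.53 to 5.25%) and 789 of 14461 in CLPP-KO (5.46%, 5.10 to 5.84%). Merged across lists where they overlapped by at least 1 bp, they gave 884 noncoding-promoter regions, against 15110 regions for all peaks together. Of those 15110, 13148 overlapped a coding promoter window and 1103 overlapped neither kind of window. The 884 regions overlapped the start windows of 1112 lncRNA genes out of 31151 annotated on these chromosomes, and 581 of them overlapped a single lncRNA gene. The rule used position and gene type only, not the height of any signal.

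ChIP–seq for H3K4me3 was carried out on differentiated mBA cells, with 4 ChIP samples and 1 input sample per condition. WT cells were wild type and untreated, WT + 2HG cells were wild type and received a cell-permeable ester of d-2-hydroxyglutarate dissolved in DMSO, and CLPP-KO cells were untreated and lacked CLPP, a protease of the mitochondrial matrix. Whether the untreated cells received DMSO is not given in the sources used here. CLPP-KO cells alone were grown with uridine, so the genotype and the uridine cannot be told apart. The sample labels call the cells primary, whereas the methods describe preadipocyte lines from brown fat of pooled control and knockout animals, immortalized with SV40 large T antigen by lentivirus. All 3 conditions share the immortalization and differentiation, and each genotype is a single derived line. Peak calling by the authors combined the 4 replicates of each condition, so each condition has 1 list, no spread between replicates can be given and no test between conditions was made. Intervals below cover counting error over regions only. For brevity, treated lists stands below for the WT + 2HG and CLPP-KO lists, although CLPP-KO cells were untreated.

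LncRNAs are transcripts that encode no protein, and many act near the site where they are made, for example by guiding chromatin regulators, by being transcribed across a neighbouring gene or by releasing microRNAs and small nucleolar RNAs from their introns. H3K4me3 is laid down around start sites of transcribed genes and also of silent but poised genes, where CpG-rich DNA recruits the methyltransferases. Its removal depends on demethylases that use α-ketoglutarate, which 2HG resembles and with which it competes.

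Promoter sequences are shown for regions with the largest areas in each pattern of lists, as examples of the DNA at these lncRNA starts. Each run holds 100 bases before to 50 bases from the annotated lncRNA start, 5′ to 3′ on the lncRNA strand in GRCm39, with CG dinucleotides in capitals. The first 3 belong to regions with a peak in all lists, namely Lncppara at chr15:85555912-85556061 (plus strand), Gm65345 at chr8:84928105-84928254 (plus) and Gm8066 at chr5:137508415-137508564 (plus).
Lncppara: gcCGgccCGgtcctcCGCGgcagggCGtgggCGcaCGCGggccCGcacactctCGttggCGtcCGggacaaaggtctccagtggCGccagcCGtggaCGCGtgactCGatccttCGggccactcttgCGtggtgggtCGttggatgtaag
Gm65345: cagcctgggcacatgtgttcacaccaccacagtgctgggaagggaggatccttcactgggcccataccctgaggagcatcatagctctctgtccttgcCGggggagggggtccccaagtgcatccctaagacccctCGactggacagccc
Gm8066: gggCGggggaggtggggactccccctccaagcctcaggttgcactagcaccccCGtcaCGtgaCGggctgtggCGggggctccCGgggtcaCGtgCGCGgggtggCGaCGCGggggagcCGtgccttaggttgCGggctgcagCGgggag
The next belong to regions found with a peak in both treated lists but not in WT, Gm66249 at chr3:93355121-93355270 (minus strand) and Gm16938 at chr7:97843523-97843672 (plus).
Gm66249: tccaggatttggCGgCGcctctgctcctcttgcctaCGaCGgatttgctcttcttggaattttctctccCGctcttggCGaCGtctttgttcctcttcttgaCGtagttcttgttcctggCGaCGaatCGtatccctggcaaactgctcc
Gm16938: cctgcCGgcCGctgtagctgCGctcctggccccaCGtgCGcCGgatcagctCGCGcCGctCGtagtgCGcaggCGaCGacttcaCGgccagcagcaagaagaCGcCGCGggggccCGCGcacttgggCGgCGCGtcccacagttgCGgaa
Regions with a peak in CLPP-KO only are represented by ENSMUSG00000126371 at chr12:22956206-22956355 (minus), Dlx1as at chr2:71369575-71369724 (minus) and Gm67108 at chr10:80026401-80026550 (plus).
ENSMUSG00000126371: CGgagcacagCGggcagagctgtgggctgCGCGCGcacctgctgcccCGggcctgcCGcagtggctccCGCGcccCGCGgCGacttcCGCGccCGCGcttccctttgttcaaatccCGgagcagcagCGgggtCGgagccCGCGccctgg
Dlx1as: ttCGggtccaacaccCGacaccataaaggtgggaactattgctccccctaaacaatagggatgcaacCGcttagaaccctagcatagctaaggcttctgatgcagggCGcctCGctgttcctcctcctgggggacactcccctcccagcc
Gm67108: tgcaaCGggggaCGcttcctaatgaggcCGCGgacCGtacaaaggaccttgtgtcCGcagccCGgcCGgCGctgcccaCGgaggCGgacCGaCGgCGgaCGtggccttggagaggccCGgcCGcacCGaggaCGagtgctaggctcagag
Those with a peak in WT + 2HG only are Gm73020 at chr7:30907667-30907816 (plus) and Gm56606 at chr16:30329357-30329506 (plus).
Gm73020: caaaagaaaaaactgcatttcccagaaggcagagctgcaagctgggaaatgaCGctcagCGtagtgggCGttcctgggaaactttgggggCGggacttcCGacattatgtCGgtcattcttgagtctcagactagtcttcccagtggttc
Gm56606: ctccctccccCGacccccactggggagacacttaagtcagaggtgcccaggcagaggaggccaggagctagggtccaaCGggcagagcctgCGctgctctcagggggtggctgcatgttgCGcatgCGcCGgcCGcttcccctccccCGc
The number of CG dinucleotides in these 150 bases differed within each pattern. Lncppara held 20 and Gm8066 held 15, but Gm65345 held 2. Gm66249 and Gm16938 held 11 and 23, and the 3 CLPP-KO-only promoters held 21 (ENSMUSG00000126371), 5 (Dlx1as) and 19 (Gm67108). Gm73020 and Gm56606, both in WT + 2HG only, held 6 and 8. The start of Dlx1as lies 1944 bp downstream of the summit of its region, so its printed run is not under the peak, and the same holds for Gm66249, whose summit lies 603 bp inside the transcript. The runs of Gm73020 and Gm56606 lie only partly within their regions.

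The lists carry an area under the curve of the −log10 p for each peak and a summit −log10 p, but no counts of reads. The study states a nominal sequencing depth for its libraries, but the reads behind each list could not be read from these data. Areas are not scaled between lists. The median area of all peaks was 3053 in WT, 5124 with 2HG and 5969 in CLPP-KO. Values are therefore given as area percentiles, the rank of a peak's area among all peaks of its own list on chromosomes 1 to 19, where 100 is the largest, and with 2HG stands for the WT + 2HG list. Of 12 brown adipocyte genes used to check the label, 3 had a promoter peak in WT (Pparg, Prdm16 and Zfp516), 5 with 2HG and 6 in CLPP-KO. Of all protein-coding genes on chromosomes 1 to 19, 52.9, 58.0 and 59.7% had one, so the 12 genes were marked less often in every list. Ucp1, Adipoq and Fabp4, which define brown or mature fat cells, had none in any list, nor had Ppargc1a, Dio2 and Cox7a1. Of 9 genes of other cell types, 0 had a promoter peak in WT or WT + 2HG and 2 in CLPP-KO (Myod1 and Rbfox3). Clpp had a promoter peak in every list, which does not check its deletion, since a promoter mark can persist when the protein is lost.

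Fewer noncoding-promoter regions than coding-promoter regions were marked in every list. A peak was present in all 3 lists at 401 of 884 noncoding-promoter regions (45.4%, 42.1 to 48.7%), against 72.0% of all regions and 78.3% of coding-promoter regions (77.5 to 79.0%). Another 449 (50.8%, 47.5 to 54.1%) had no peak in WT and a peak in at least 1 treated list, where the background was 25.6% of all regions and the coding share 19.8%. These comprised 188 regions in both CLPP-KO and WT + 2HG (21.3%, 18.7 to 24.1%, against 11.2% of all regions), 193 in CLPP-KO only (21.8%, 19.2 to 24.7%, against 9.76%) and 68 in WT + 2HG only (7.69%, 6.11 to 9.64%, against 4.69%). In the opposite direction, 34 regions had a peak in WT and lacked one in a treated list (3.85%, 2.77 to 5.33%, against 2.41%). Of these 34, CLPP-KO held 14, WT + 2HG held 7 and neither treated list held 13. Regions away from every start window went further the same way, with 18.1% of 1103 in all lists and 75.2% absent from WT.

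**Figure D1:**
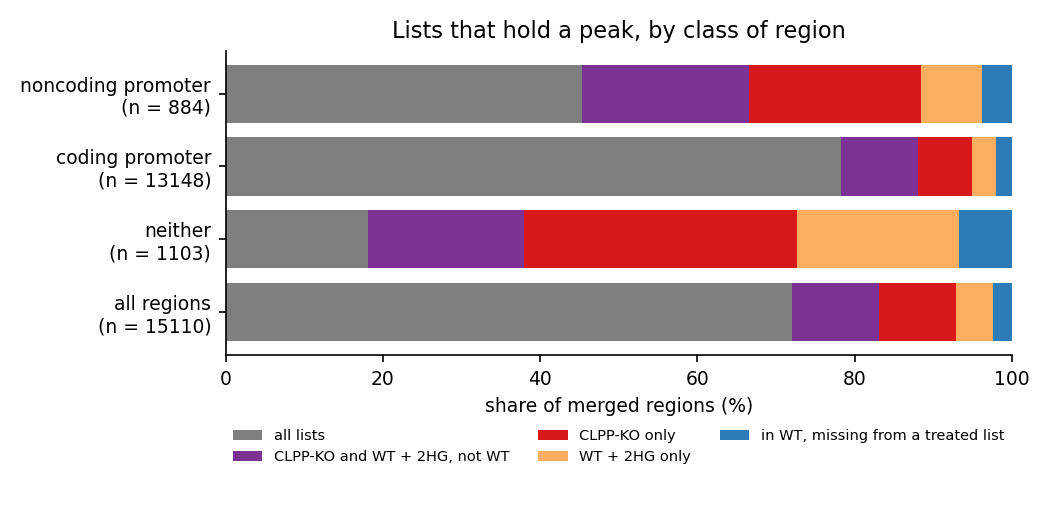
Share of merged regions (x axis, %) by which lists hold a peak, for noncoding-promoter regions, coding-promoter regions, regions at neither and all regions. Bars sum to 100%. The grey segment, peaks in all lists, covers 45.4% of the 884 noncoding-promoter regions and 78.3% of the 13148 coding-promoter regions.

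The share of regions absent from WT fell with lists of equal length, but stayed above the coding share. With each list limited to its 11988 peaks of largest area, 607 noncoding-promoter regions remained, of which 174 were absent from WT (28.7%) and 90 were in WT and missing from a treated list, in place of 449 and 34. Within these equal lists, 28.3% of CLPP-KO regions and 22.6% of WT + 2HG regions were absent from WT, against 9.41% and 8.23% of coding-promoter regions. With the deposited lists the shares were 47.9% (381 of 796, 44.4 to 51.3%) in CLPP-KO and 38.6% (256 of 664, 34.9 to 42.3%) in WT + 2HG, against 17.4% and 14.1% of coding-promoter regions.

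Both treated lists were compared with the same WT list, so some sharing between them follows from that list alone. Among 381 regions that CLPP-KO held and WT lacked, WT + 2HG held 188, a share of 49.3% (44.4 to 54.3%), against 53.3% over all regions and 58.8% of coding-promoter regions. Among 256 that WT + 2HG held and WT lacked, the same 188 made up 73.4% (67.7 to 78.5%), against 70.4% over all regions. By gene, 605 lncRNA genes had a region in WT, 876 with 2HG and 1024 in CLPP-KO, and 567 had a region in all lists. Another 507 had a region with treatment or knockout but not in WT, 237 of them in both treated lists, 206 in CLPP-KO alone and 64 in WT + 2HG alone.

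Noncoding-promoter peaks were weak and narrow within their own lists. Their median area percentile was 23.1 in WT (95% order-statistic interval 20.7 to 26.1, n = 431), 22.6 in WT + 2HG (20.6 to 24.8, n = 650) and 23.4 in CLPP-KO (21.7 to 25.4, n = 775), whereas coding-promoter regions had medians of 55.0, 55.0 and 55.6. A peak above the 90th area percentile stood at 9, 11 and 13 noncoding-promoter regions, respectively. The regions had a median width of 627.5 bp (606 to 653 bp), against 1023 bp for coding-promoter regions. Percentiles were taken only from peaks that met the rule themselves, so the 29 regions that some list held only through a peak reaching a coding window had no percentile in that list.

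Regions absent from WT were the weaker ones. Regions in all lists had median area percentiles of 25.6 in WT, 33.4 with 2HG and 37.1 in CLPP-KO. Those in CLPP-KO and WT + 2HG but not WT had 14.0 in WT + 2HG (10.6 to 15.6) and 18.9 in CLPP-KO (17.1 to 21.2). CLPP-KO-only regions had a median of 8.39 (6.92 to 9.74) and WT + 2HG-only regions 5.24 (3.26 to 7.59), and the 13 WT-only regions stood at 1.41 (0.609 to 6.62). Median widths were 883 bp in all lists, 612.5 bp in both treated lists, 400 bp in CLPP-KO only, 392.5 bp in WT + 2HG only and 429 bp in WT only. A region at the edge of detection in 1 list can thus be missing from another, and how much of the absence this accounts for was not tested.

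**Figure D2:**
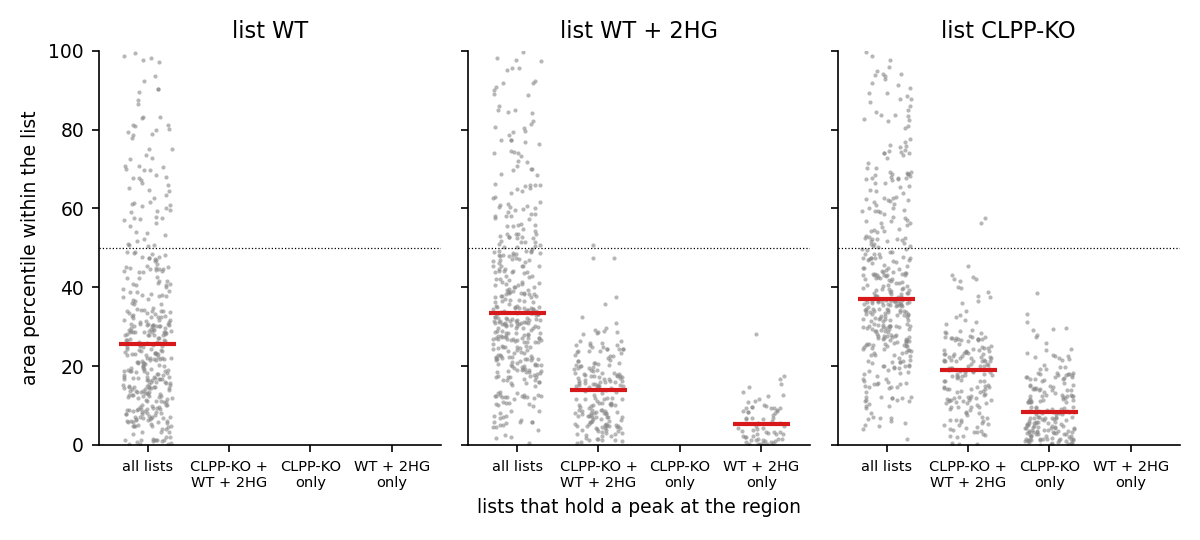
Area percentile within each list (y axis, 100 is the largest area) of noncoding-promoter regions, grouped by the lists that hold a peak. Each grey point is a region, the red line the median and the dotted line the middle of the list. Medians in CLPP-KO step from 37.1 for regions in all lists to 18.9 for regions shared with WT + 2HG and 8.39 for CLPP-KO only.

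At like area, the gap between noncoding and coding regions was smaller than over all areas. Among CLPP-KO regions in the lowest 20 percentiles, 272 of 334 noncoding-promoter regions were absent from WT (81.4%, 76.9 to 85.2%), against 72.7% of coding-promoter regions (70.6 to 74.7%). Between percentiles 20 and 40 the shares were 35.8% (30.2 to 41.8%) and 29.8% (28.0 to 31.7%), and between 40 and 60 they were 7.92% (4.07 to 14.9%) and 4.65% (3.92 to 5.51%). Above percentile 60, 0 of 50 and 0 of 30 noncoding-promoter regions in the next bins were absent from WT, which allows shares of up to 7.13% and 11.4%. In WT + 2HG the lowest bin held 71.5% (66.1 to 76.4%) and 68.9% (66.7 to 71.0%), and the next 21.9% (16.8 to 28.0%) and 18.7% (17.1 to 20.3%). In these bins the intervals of noncoding and coding regions overlapped, apart from the lowest CLPP-KO bin.

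**Figure D3:**
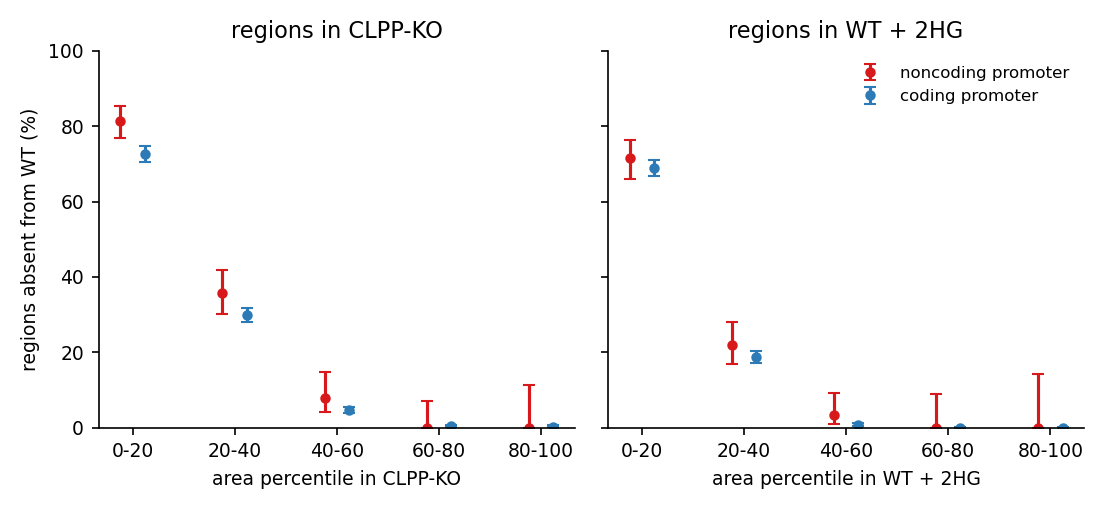
Share of regions absent from WT (y axis, %) by area percentile in CLPP-KO (left) and WT + 2HG (right), for noncoding-promoter (red) and coding-promoter regions (blue). Bars are 95% Wilson intervals. In CLPP-KO the noncoding shares are 81.4, 35.8 and 7.92% in the lowest 3 bins and 0.0% above.

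The strongest regions present in all lists, ranked by WT area, were led by Lncppara. Its CpG-rich region of 2713 bp at chr15:85554107-85556819 had an area percentile of 99.4 in WT, 99.6 with 2HG and 99.6 in CLPP-KO. The gene hosts let-7b and let-7c-2, and the nearest protein-coding start was that of Ppara, which encodes a nuclear receptor for fatty acids, 62648 bp away. Lncppara also named more regions than any other gene, 5 in all, and the strong one was joined by 2 further regions in all lists and 2 in CLPP-KO only. Dleu2, the host of miR-15a and miR-16-1, stood at 97.1, 98.2 and 98.8 at chr14:61918314-61920731, in the same order of lists. Gm65345 stood at 98.6 in WT, 88.7 with 2HG and 96.0 in CLPP-KO, 16147 bp from the germ-cell gene Nanos3, and its CpG ratio of 0.43 was the lowest of these 5. Gm8066, transcribed antisense to the body of a coding gene near Gigyf1, stood at 98.1, 95.7 and 91.8, and Gm61211 at 97.7, 88.9 and 93.5. All 5 thus lay in the upper part of every list.

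Of regions in CLPP-KO and WT + 2HG and absent from WT, ranked by CLPP-KO area, Gm66249 came first. Its region of 2336 bp at chr3:93352655-93354990 had percentiles of 50.7 with 2HG and 57.5 in CLPP-KO and lay antisense within the body of a coding gene, with the start of Tchh, the hair follicle protein trichohyalin, 4930 bp away. Gm58563, with Dtna as its nearest coding gene, stood at 24.4 and 56.3, and Gm16938 near B3gnt6 at 22.1 and 45.3. AI849053 stood at 23.5 with 2HG and 43.0 in CLPP-KO, 32756 bp from the start of Mef2d, a transcription factor of muscle and neurons. Near Foxd1, a forkhead transcription factor of kidney stroma, Gm60026 stood at 37.6 and 42.6. Gm59335 near Lbx1, a homeobox gene of migrating muscle precursors, stood at 2.8 and 42.2, and 1700039E22Rik near Pax2, a regulator of kidney and eye development, at 13.3 and 42.0. ENSMUSG00000133266 on chromosome 12 stood at 24.5 and 41.6. In all 8 the CLPP-KO percentile exceeded the WT + 2HG percentile, an order that ranking by CLPP-KO area favours.

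Regions in CLPP-KO only were led by ENSMUSG00000126371 at chr12:22955469-22956595, with a percentile of 38.6. Dlx1as, which lies beside the paired homeobox genes Dlx1 and Dlx2 of forebrain interneurons, had a region at chr2:71371373-71372018 at percentile 33.3. Gm67108 near the ephrin gene Efna2 stood at 31.2. C130073E24Rik stood at 29.7, with its summit at the annotated start (0 bp) and the nearest coding start, that of Tenm3, 2072457 bp away. Gm74526 in the Hoxb cluster stood at 29.3, and its region of 619 bp lay 3386 bp from the start of Hoxb4. These 5 are the largest of 193, and all lay below the middle of the CLPP-KO list.

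The largest WT + 2HG-only regions were lower still. Gm73020 stood at percentile 28.3 at chr7:30907754-30908329, Gm56606 at 17.6, 1700113A16Rik near Mef2d at 16.8 and Gm71146 near the homeobox gene Hlx at 15.5. Among regions that WT had and a treated list lacked, 4930456A14Rik stood at 23.0 in WT and 14.8 in CLPP-KO with no peak in WT + 2HG. Gm69615 stood at 15.8 and 4.8 and Gm67184 at 11.7 and 30.1, also without WT + 2HG. Gm62931, in WT only, stood at 13.3. Gm70174 stood at 18.4 in WT and lacked CLPP-KO, 3079 bp from Irs1, an adaptor of the insulin receptor, and WT + 2HG held it only through a peak that reached a coding window.

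Sequence content set regions in WT + 2HG only apart from those in all lists, both treated lists or CLPP-KO only. The CpG ratio, the observed over the expected number of CG dinucleotides, had a median of 0.691 over noncoding-promoter regions (0.673 to 0.70) and 0.730 over coding-promoter regions (0.727 to 0.733), at a GC content of 62.0% and 61.8%. The median was 0.709 (0.691 to 0.732) in all lists, 0.693 (0.660 to 0.724) in both treated lists and 0.677 (0.630 to 0.710) in CLPP-KO only, with overlapping intervals. In WT + 2HG only it was 0.521 (0.425 to 0.597). A CpG ratio of at least 0.6 with a GC content of at least 50%, the usual composition of a CpG island, was met by 76.3% of regions in all lists, 69.1% in both treated lists, 63.7% in CLPP-KO only and 35.3% (25 to 47.2%) in WT + 2HG only. Coding-promoter regions showed the same order, with 85.1, 73.9, 62.3 and 38.0%, so the lower CpG content of WT + 2HG-only regions was not limited to noncoding promoters. The 13 WT-only noncoding-promoter regions had a median CpG ratio of 0.422 (0.221 to 0.723). It was 0.750 (0.658 to 0.870) for the 14 in WT and CLPP-KO and 0.454 (0.196 to 0.622) for the 7 in WT and WT + 2HG.

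**Figure D4:**
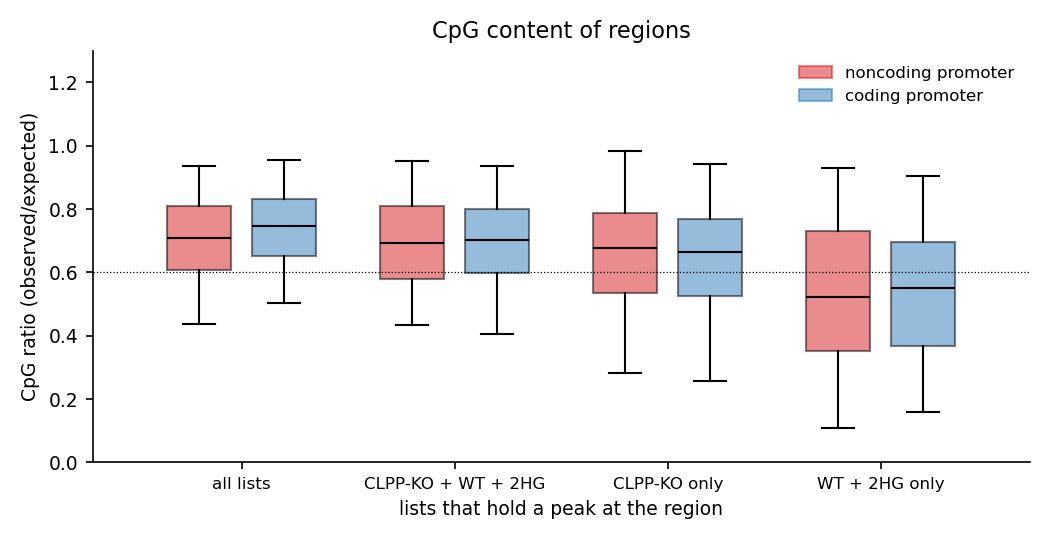
CpG ratio (observed over expected, y axis) of noncoding-promoter (red) and coding-promoter regions (blue) by the lists that hold a peak. Boxes span the quartiles with the median, whiskers the 5th to 95th percentile, and the dotted line marks 0.6. Noncoding medians are 0.709, 0.693, 0.677 and 0.521 from left to right.

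Letters known as binding motifs of general promoter factors were searched on both strands within 150 bp of each summit. The SP/KLF box GGGCGG was present at 57.0% of noncoding-promoter regions (53.7 to 60.2%) and 61.5% of all regions, and at 64.6% of those in all lists, 59.6% in both treated lists, 48.7% in CLPP-KO alone and 38.2% in WT + 2HG alone. The NFY box CCAAT was present at 18.4% (16.0 to 21.1%) against 15.7% of all regions, the E-box CACGTG at 9.16% against 6.14% and TATAAA at 3.85% against 2.00%. The ETS letters CCGGAAG stood at 6.90% against 7.82%, the YY1 letters AAGATGG at 2.26% against 4.54%, the CRE palindrome TGACGTCA at 1.36% against 0.774% and the NRF1 letters CGCATGCG at 0.452% against 0.602%. CG-rich motifs overlap the CpG content given above, and a match describes letters, not binding.

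Most summits lay close to the annotated start, which the rule itself favours. It keeps only peaks that reach the 2000 bp around a lncRNA start and no coding window. The distances to lncRNA and coding starts below are thus partly fixed by it. The median distance from summit to lncRNA start was 183 bp (159 to 208 bp), and 74.9% of summits lay within 500 bp (71.9 to 77.6%), against 89.1% for coding starts. The summit lay downstream of the start at 58.5% of regions, against 79.4% for coding starts. The nearest coding start was a median of 17289.5 bp away (15901 to 19688 bp) and over 10 kb away for 63.6% of regions. Most summits, 80.5%, lay outside every coding gene body, 16.5% lay antisense within one and 2.83% on its own strand. At the 2000 bp limit itself, the members whose edges were nearest a coding start were Gm28707, Grin1os and Gm56826 at 2004, 2006 and 2008 bp, and the merged regions just outside it reached 1998, 1997 and 1993 bp.

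The neighbouring coding gene was usually marked as well. The nearest coding gene had a promoter peak in WT for 67.5% of regions (64.4 to 70.5%), in WT + 2HG for 76.6% and in CLPP-KO for 79.0%, against 52.9, 58.0 and 59.7% of the 20621 protein-coding genes on these chromosomes. Regions absent from WT mostly did not have a neighbour that was itself absent from WT. Their nearest coding gene was marked in WT in 301 of 449 cases (67.0%, 62.6 to 71.2%). It was absent from WT and marked in a treated list for 16.0% of regions in both treated lists (11.4 to 21.9%), 15.5% in CLPP-KO only, 10.3% in WT + 2HG only and 10.5% in all lists, against 7.97% of all coding genes. Of regions absent from WT, 22 of 449 lay within 1000 bp of a WT peak (4.90%, 3.26 to 7.31%) and 19.4% within 5000 bp, against 17.8 and 27.9% of coding-promoter regions absent from WT. Since the rule keeps the regions out of coding windows, it bears on this difference. The median gap to a WT peak was 25211 bp (20326 to 32673 bp), against 26556 bp for coding-promoter regions.

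Repeated sequence was more common than at coding promoters. In 37 of 884 regions (4.19%, 3.05 to 5.72%), at least 50% of the 50-base words also occurred in another region, on either strand, against 0.418% of coding-promoter regions. How well reads could be assigned to such regions was not tested. The share was 3.99% of regions in all lists, 4.26% in both treated lists, 4.15% in CLPP-KO alone and 5.88% in WT + 2HG alone. Among the regions named above it was met by ENSMUSG00000126371 (58.3% of its words), and ENSMUSG00000133266 on the same chromosome had 47.2%, so the values of these regions are uncertain.

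LncRNAs with a known role fell into all of the main patterns. Of 39 symbols listed, 35 were annotated as lncRNA genes and 18 had a noncoding-promoter region. Another 6 were marked only in peaks that reached a coding window (Gas5, Hotair, Hottip, Crnde, Dlx6os1 and Trp53cor1). The other 11 had no peak, Lncbate1 among them. The 18 genes accounted for 27 regions, 16 in all lists, 2 in both treated lists, 7 in CLPP-KO alone and 2 in WT + 2HG alone. Over all noncoding-promoter regions these patterns held 45.4, 21.3, 21.8 and 7.69%. Norad, which binds Pumilio proteins, shares its region with 1700057D03Rik and stood at percentiles 72.5 in WT, 77.3 with 2HG and 80.9 in CLPP-KO. Of the 50-base words of this region, 65.1% also occurred in another region, so its values are uncertain. Oip5os1, also called Cyrano and known for directing miR-7 decay, stood at 68.0, 64.4 and 59.2. Neat1, the scaffold of nuclear paraspeckles, stood at 64.7 in WT but at 29.7 and 36.4 in the treated lists. Malat1, an abundant RNA of nuclear speckles, had 4 regions, with 28.8, 36.6 and 43.5 at the highest of them. Terc, the RNA template of telomerase, stood at 48.1, 44.1 and 60.1, and Pvt1, the neighbour of Myc, at 34.7, 30.4 and 36.9. These 6 genes had a peak in each list, and their ranks did not move in a common direction.

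Imprinted lncRNAs differed among themselves, and Meg3, Rian, Mirg and Peg13 had no promoter peak in any list. Airn, which silences Igf2r on the paternal chromosome, stood at 53.7 in WT, 66.0 with 2HG and 68.9 in CLPP-KO, and Kcnq1ot1, which acts the same way at the Cdkn1c cluster, at 19.2, 33.7 and 23.9. H19, the maternally expressed growth-restraining RNA that hosts miR-675, had 2 regions in WT + 2HG only, at percentiles 12.8 and 9.7. Outside the imprinted group, both regions of Miat (15.0 and 16.1), a brain- and heart-expressed RNA, were in CLPP-KO only. So were both of Sox2ot (5.7 and 22.0), which overlaps the pluripotency gene Sox2 and had a peak in WT + 2HG at another start. The same held for the single region of Fendrr (14.5), an RNA of lateral mesoderm beside Foxf1. Another start of Fendrr had a peak in every list, but in peaks that reached a coding window. Six3os1, opposite the eye and forebrain gene Six3, stood at 8.1 with 2HG and 17.5 in CLPP-KO.

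Hosts of small RNAs made up 92 regions, of which 52 were in all lists, 12 in both treated lists, 19 in CLPP-KO only, 7 in WT + 2HG only, 1 in WT alone and 1 in every list but CLPP-KO. Thus 38 of 92 were absent from WT (41.3%), against 50.8% of all noncoding-promoter regions. With lists of equal length the count was 13 of 67 (19.4%). Of the 92, 72 belonged to microRNA hosts and 20 to snoRNA hosts. These hosts held 73 microRNA genes, 53 of which had mature sequences in RefSeq (assembly GRCm38.p6). A microRNA finds its targets through bases 2 to 8, the seed, so those of marked hosts are shown with the seed in capitals.
mmu-let-7a-5p: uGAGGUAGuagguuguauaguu
mmu-let-7b-5p: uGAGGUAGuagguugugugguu
mmu-let-7i-5p: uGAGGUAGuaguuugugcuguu
mmu-miR-17-5p: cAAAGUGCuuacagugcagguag
mmu-miR-20a-5p: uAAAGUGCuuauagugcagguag
mmu-miR-365-3p: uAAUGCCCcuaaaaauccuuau
mmu-miR-15a-5p: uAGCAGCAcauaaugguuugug
mmu-miR-29c-3p: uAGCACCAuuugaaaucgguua
mmu-miR-9-5p: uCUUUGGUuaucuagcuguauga
mmu-miR-196a-5p: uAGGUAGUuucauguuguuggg
mmu-miR-129-5p: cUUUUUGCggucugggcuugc
mmu-miR-675-3p: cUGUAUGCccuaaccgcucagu
The let-7 seed GAGGUAG was shared by 6 mature sequences (let-7a, b, c, d, f and i) from 3 hosts, Lncppara, 6720427I07Rik and Gm63655, each with a region in every list. The seed CUUUGGU of miR-9-5p came from 3 hosts, Gm3764, Mir9-2hg and Mir9-3hg. Within Mir17hg, miR-17-5p and miR-20a-5p shared AAAGUGC.

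Hosts of microRNAs ranged from strongly to weakly marked, with a median percentile in WT of 28.9. Dnm3os, the host of Mir199a-2 and Mir214, stood at 2.0 in WT, 10.8 with 2HG and 12.0 in CLPP-KO. At the other end, Gm63655, the host of let-7i, a brake on proliferation, stood at 92.4 in WT, 95.1 with 2HG and 94.9 in CLPP-KO. Gm10387, the host of Mir365-2, stood at 93.7, 90.0 and 91.3, and Gm53058, which holds the brown-fat microRNA gene Mir193b with Mir365-1, at 80.8, 78.8 and 87.9. E130102H24Rik (Mir101a) stood at 90.3, 92.2 and 84.5. Picked after their values were seen, several others had lower ranks in WT than in both treated lists. Mir17hg, the host of the growth-promoting miR-17 to miR-92 cluster, stood at 68.6, 91.7 and 80.4, 6720427I07Rik (let-7a-1, let-7d and let-7f-1) at 57.6, 85.1 and 82.4, and 1700016P03Rik (Mir132 and Mir212) at 62.6, 84.5 and 89.3. A330023F24Rik, the host of Mir29b-2 and Mir29c, which restrain collagen genes, stood at 21.0, 50.1 and 59.5. The reverse held for Gm72526, the host of the hypoxia-induced Mir210, at 59.3, 36.7 and 39.5. Regions in all lists as a whole also stood lower in WT, with median percentiles of 25.6 in WT, 33.4 with 2HG and 37.1 in CLPP-KO. A rise is thus not particular to these hosts. With 1 list per condition no error can be put on the steps of single hosts.

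Hosts of microRNAs known from the brain did not share a pattern. Gm27032, the host of Mir124a-3, stood at 0.7 in WT, 49.3 with 2HG and 58.6 in CLPP-KO. Gm3764, the host of the neuronal progenitor microRNA gene Mir9-1, stood at 4.5, 49.0 and 33.8, and Mir9-2hg at 19.4, 30.6 and 30.4. Mir9-3hg had 2 regions in CLPP-KO only, at 3.8 and 17.2, and Mir124-2hg 2 at 3.6 and 1.4. Mir124a-1hg, in contrast, had a region at 37.6, 34.7 and 46.8 in the 3 lists, and Mir670hg, which holds Mir129-2, 1 at 15.9, 15.7 and 14.6. Gm3294 (Mir129-1) stood at 11.2 with 2HG and 23.0 in CLPP-KO. Outside this group, Gm53, which holds Mir196a-1 between Hoxb genes, stood at 7.6 with 2HG and 27.4 in CLPP-KO. Of 20 snoRNA-host regions, 10 were in all lists, with a median percentile in WT of 43.4. Snhg6 stood at 44.0 in WT, 53.6 with 2HG and 47.5 in CLPP-KO, whereas Snhg8 stood at 1.2 in WT, 31.0 with 2HG and 26.7 in CLPP-KO. Snhg15 stood at 17.7 with 2HG and 24.4 in CLPP-KO with no peak in WT, and Snhg12 was in WT + 2HG only, at 3.2. The hosts in this paragraph were picked from the list after their values were seen, and no share was computed for them.

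Regions that overlapped a start window of a lncRNA named for the coding gene on the opposite strand numbered 21, with 10 in all lists, 4 in both treated lists and 7 in CLPP-KO only. Thus 11 of 21 were absent from WT, against 50.8% of all noncoding-promoter regions. The regions named Neat1, 2410006H16Rik and Gm74526 entered through another gene they overlap (Frmd8os, Lrrc75aos2 and Hoxb5os). The CLPP-KO-only regions were those of Prox1os (8.3), Gata3os (4.9), Mypopos (19.3), Hand2os1 (1.1), Hoxb5os (12.3), Gm74526 (29.3), and Hoxb3os (27.3). Junos, named for the immediate-early gene Jun, stood at 20.7 with 2HG and 21.4 in CLPP-KO, and Evx1os at 18.1 and 18.7. The summit of this Junos region lay 109064 bp from the start of Jun.

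Neighbours of developmental regulators were mostly absent from WT. Regulators were taken by symbol from fixed families, among them Hox, Fox, Wnt, Sox, Tbx, Bmp, Fgf and Gdf. Neighbours of Gdf15 and Foxo1 are thus counted, whereas those of Lbx1, Hand2, Prox1 and Hlx are not. The nearest coding start belonged to such a gene for 94 of 884 regions (10.6%, 8.77 to 12.8%), against 3.53% of all regions, which are mostly coding-promoter regions. Median area percentiles of the 94 were 25.3 in WT, 18.1 with 2HG and 20.2 in CLPP-KO. Over all noncoding-promoter regions they were 23.1, 22.6 and 23.4. The part of area in the absence from WT was not tested for this group. Of these 94, 29 were in all lists, 28 in both treated lists, 34 in CLPP-KO only, 2 in WT + 2HG only and 1 in WT and CLPP-KO, so that 64 were absent from WT (68.1%), against 50.8% of all noncoding-promoter regions. The share with such a neighbour was 7.23% (5.08 to 10.2%) of regions in all lists, 14.9% (10.5 to 20.7%) in both treated lists, 17.6% (12.9 to 23.6%) in CLPP-KO only and 2.94% (0.810 to 10.1%) in WT + 2HG only. The corresponding shares of coding-promoter regions were 1.76, 7.15, 7.89 and 3.39%, so that WT + 2HG only was the lowest among noncoding and all lists the lowest among coding regions. With lists of equal length, 34 of 63 were absent from WT (54.0%), 12 in both treated lists, 20 in CLPP-KO alone and 2 in WT + 2HG alone, and 7 were in WT and missing from a treated list.

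**Figure D5:**
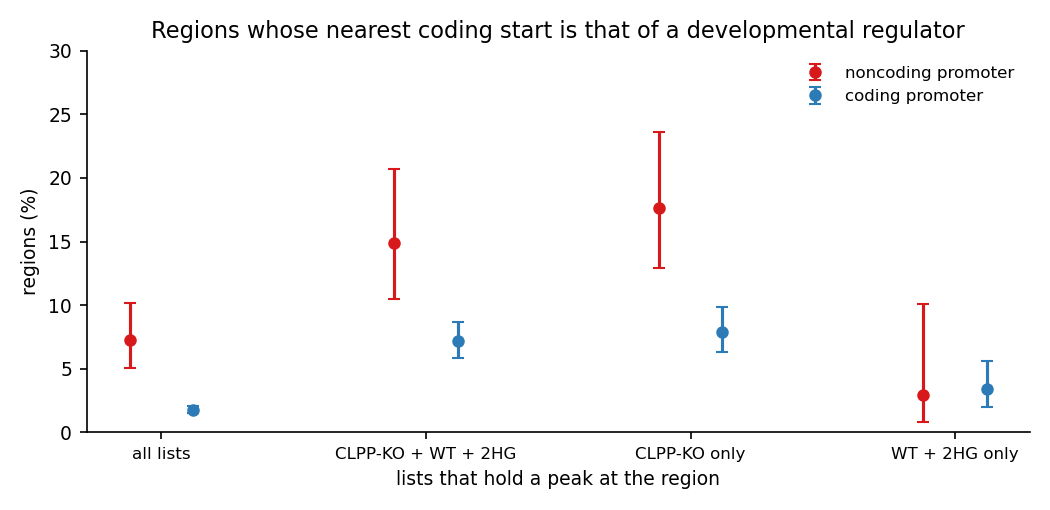
Share of regions (y axis, %) whose nearest coding start is that of a developmental regulator, for noncoding-promoter (red) and coding-promoter regions (blue), by the lists that hold a peak. Bars are 95% Wilson intervals. The noncoding share is 17.6% in CLPP-KO only and 7.23% in all lists.

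Families differed in which lists held their neighbours. A region counts as beside a gene when that gene has the nearest coding start, at any distance. Of 12 regions beside Hox genes, which set position along the body axis, 4 were in all lists, 1 in both treated lists and 7 in CLPP-KO only. The 4 in all lists included Hoxaas2 (31.3, 32.4 and 36.3) and Gm36878 near Hoxc9 (65.1, 62.6 and 68.4), and the CLPP-KO-only ones included Gm74526, Hoxb3os, Gm14424 near Hoxd3 (18.2) and both regions of Gm62084 near Hoxc4 (19.7 and 13.8). Of 12 beside Fox genes, 4 were in all lists, 5 in both treated lists and 3 in CLPP-KO only. All 5 beside Meis genes, the partners of Hox proteins, were in all lists, as were 6 of 8 beside Wnt genes, which encode secreted signals that hold back fat-cell differentiation. In contrast, all 5 beside Pou genes were absent from WT. Over all 884 noncoding-promoter regions, 401 were in all lists and 449 were absent from WT. Some neighbours are distant. Both regions of 8430419K02Rik lay 140284 and 134123 bp from Meis1. Gm62280 and Lncppara, which overlap start windows of the let-7b host, lay 63871 and 71268 bp from Wnt7b. Each family holds few regions, and several of them share a gene.

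The coding regulators beside these regions were largely marked already. Among the 64 developmental neighbours absent from WT, the nearest coding gene had a promoter peak in WT in 46 (71.9%, 59.9 to 81.4%), in WT + 2HG in 57 (89.1%) and in CLPP-KO in 61 (95.3%). Over all 449 noncoding-promoter regions absent from WT, these shares were 67.0, 77.5 and 80.2%. The WT share of developmental neighbours was thus close to that of the whole class. Gm60026 was absent from WT while Foxd1 was marked in all lists. By contrast Hoxb2, Six3 and Foxa1, the neighbours of Hoxb3os, Six3os1 and Gm60930, were unmarked in WT and marked in both treated lists.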

How the data were processed

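H3K4me3 ChIP–seq of mBA cells was processed by the authors to 1 narrowPeak list per condition. The submitters' processing notes name fastp 0.23.4, BWA 0.7.17, deepTools 3.5.4 and Genrich 0.6.1, and Genrich combined the 4 replicates of each condition against the input, at q of at most 0.05. The handling of reads that map to several places is not given in the sources used here. Each deposited peak carries a signal value, the area under the curve of −log10 p, and the −log10 p at its summit. The deposited q column holds no values and the score column was not used. The smallest area in any list was 200.022. Columns without a matched condition numbered 0.

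Peaks were assigned to windows of 2000 bp around transcript starts in the GRCm39 annotation and merged by 1 bp overlap. Both steps used numpy 2.4.6 and pandas 2.3.3 under python 3.11.15. Genome sequence was indexed with samtools 1.23.1 and read with pysam 0.24.0. Intervals came from scipy 1.17.1 and figures from matplotlib 3.10.9. Member counts were checked with bedtools 2.31.1. The regions and gene lists were chosen with earlier results of these data known. A region was named by the lncRNA start nearest the summit of its largest-area peak. Named regions were the 5 of largest WT area in all lists, the 8 of largest CLPP-KO area in both treated lists and not WT, the 5 largest in CLPP-KO only, the 5 largest in WT + 2HG only, the 5 of largest WT area missing from a treated list, and members of the gene lists, of which examples are given. A few of these regions are not reported here. Shares carry 95% Wilson intervals and medians carry exact binomial order-statistic intervals, which cover counting error only. No test between conditions was possible. The steps were tested on simulated data, where 7 of 7 patterns were recovered among 175 planted regions and 3 of 3 counts equalled those of bedtools. In all, 10 alternatives were tried, and 6 values for the gene lists were added after seeing the data.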

Additional observations from a re-analysis of the deposited data

Results flagged for a closer look

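On the X chromosome, outside the chromosomes compared, 24 further regions met the same positional rule, and they are given here because they hold signal in data that the comparisons did not use. Of the 24, 7 were in all lists, 7 in CLPP-KO and WT + 2HG and not WT, 8 in CLPP-KO alone and 2 in WT + 2HG alone. The shares over all regions of the X chromosome were not computed, so these counts have no background and are not read as a result. The 2 in WT + 2HG alone were at Firre and Xist, at area percentiles of 9.6 and 5.9. Jpx, an activator of X inactivation, stood at area percentiles of 36.8 in WT, 42.9 with 2HG and 42.0 in CLPP-KO. Mir503hg, a microRNA host, stood at 26.8, 54.5 and 43.1.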

How the results depend on the processing

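No paired analysis was possible because each list comes from the 4 replicates combined, and for the same reason no replicate could be left out. Of 146 recomputed values, 108 stayed within the interval or within 1.5 times the count reported and 38 moved. Windows of 1000 or 3000 bp, other transcript sets, other merging and overlap rules, and counting only peaks that met the rule moved none. With summits at p of at most 1e-05, the CpG ratio was 0.706, the area percentiles 30.8 (WT), 29.8 (WT + 2HG) and 31.9 (CLPP-KO) and the width 742 bp. There were then 114 CLPP-KO-only regions, 43 WT + 2HG-only regions, 14 in WT and missing from a treated list and 22 small-RNA host regions absent from WT, and 77.2% of nearest coding genes were marked. With areas of at least 1000, these were 0.715, 38.3, 34.0, 34.6, 798 bp, 120, 26, 8, 19 and 74.3%, with 525 regions, 41.7% in all lists, and 54.8% of CLPP-KO and 44.6% of WT + 2HG regions absent from WT. With lists of equal length, the CpG ratio was 0.705, the percentiles 30.8 (WT + 2HG) and 34.4 (CLPP-KO) and the width 757 bp. Of the regions, 77 were in both treated lists, 67 in CLPP-KO only, 30 in WT + 2HG only and 90 in WT and missing from a treated list, 56.5% were in all lists, and 28.3% of CLPP-KO and 22.6% of WT + 2HG regions were absent from WT. Then 76.3% of nearest coding genes were marked, and 34 developmental neighbours and 13 host regions were absent from WT. All 3 settings remove the weakest peaks, and the last takes more of them from the longer lists. The lists hold no read counts, so the part of depth was not tested.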
